A study of Mus musculus with 7 samples.

Results

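The heterochromatin protein 1 (HP1) family was followed through 7 RNA libraries of mouse cells cultured after a sort for haematopoietic stem cells. The family here is the 3 HP1 genes Cbx1 (HP1 beta), Cbx3 (HP1 gamma) and Cbx5 (HP1 alpha), and their core partners Trim28, Suv39h1 and Setdb1. The 6 genes were taken by name from the 52224 genes of the table, and all 6 passed the filter on low values that left 13865 genes for testing. They were chosen by name, with the low Cbx3 FPKM of the drug libraries against DMSO in view. Their differences between a drug and DMSO are therefore given as a description, with no test. Tests are given for gemcitabine against hydroxyurea and for genes outside the family. The lists of other heterochromatin genes were also chosen with earlier results of these data known. Their calls against DMSO are therefore not independent evidence.

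HP1 proteins carry a chromodomain that binds histone H3 methylated on lysine 9 (H3K9) and a chromoshadow domain through which they pair and recruit other proteins. Suv39h1 and Setdb1 write the H3K9 mark, and Trim28 (KAP1), the corepressor of KRAB zinc finger proteins, brings Setdb1 and HP1 to its targets. In blood-forming cells this machinery is known for compacting pericentromeric repeats and for keeping endogenous retroviruses and genes of other lineages silent.

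The series title concerns DEK, replication stress and stem cell function in Fanconi anemia. All cells were wild type, of the strain C57BL/6J, and were sorted from bone marrow as CD48-CD150+LSK cells. They were cultured for 48 h with gemcitabine (Gem) at 0.5 µM in 2 libraries, with hydroxyurea (HU) at 100 µM in 2 libraries, or with the solvent DMSO in 3 libraries. Gemcitabine is a cytidine analogue that blocks DNA synthesis and ribonucleotide reductase, and hydroxyurea inhibits ribonucleotide reductase. The labels give no age. Nothing in them states that replicate libraries stem from different animals or cultures, so a p-value here reflects no more than library-to-library spread, possibly technical. RNA was amplified by a Geo-seq protocol made for small inputs, and levels are given as FPKM, fragments per kilobase of transcript scaled to the mapped fragments of a library. The sequencing depth is unknown.

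Of 8 stem cell markers, Slamf1, which encodes the CD150 of the sort, lay between 0.41 and 1.25 FPKM over the 7 libraries, and Mecom and Fgd5 did not pass the filter. The sort markers Ly6a (Sca-1) and Kit had 14.74 to 48.31 and 28.98 to 48.22 FPKM. Procr had 9.06 to 17.04 FPKM, Cd34 had 98.27 to 128.47 FPKM and Hlf had 0.6 to 3.68 FPKM. Ly6a was at 60.4% of its DMSO mean in Gem and 42.1% in HU, and Kit at 73.7% and 74.3%. Procr was at 67.9% and 74.9%, Cd34 at 96.8% and 80.3%, Hlf at 29.5% and 67.6%, and Slamf1 at 89.2% and 85.5%. Mecom and Fgd5, which did not pass the filter, had higher means in both drugs. The summed level of 10 granulocyte and monocyte markers was 49100 to 51100 FPKM in Gem, 45900 to 49300 FPKM in HU and 40900 to 46200 FPKM in DMSO. Most of that sum was Lyz2, with a mean of 34950 FPKM in Gem, 34450 FPKM in HU and 25890 FPKM in DMSO, while the median log2 fold change of the 10 was -0.32 in Gem and -0.53 in HU. The summed level of 8 proliferation markers was 434 to 517 FPKM in Gem, 407 to 437 FPKM in HU and 617 to 688 FPKM in DMSO. The summed level of 6 mast cell and basophil markers was 419 and 238 FPKM in Gem, 215 and 210 FPKM in HU, and 635, 1390 and 296 FPKM in DMSO, with a median log2 fold change of -0.88 in Gem and -1.37 in HU. The erythroid sum was 26.7 to 33.2 FPKM in Gem, 34.9 to 35.0 FPKM in HU and 53.2 to 99.2 FPKM in DMSO. The summed level of 7 megakaryocyte and platelet markers was 1810 and 1720 FPKM in Gem and 1370 and 1570 FPKM in HU. In DMSO it was 2740, 2830 and 1750 FPKM. Of the DMSO libraries, DMSO 3 had the lowest mast cell sum, megakaryocyte sum and Cbx3 level, and DMSO 2 had the highest of each. The stem cell sum was 198 and 176 FPKM in Gem, 162 and 163 FPKM in HU, and 223, 216 and 233 FPKM in DMSO. Cd34 was the largest part of that sum in every library, followed by Kit and Ly6a. The stem cell, proliferation and erythroid sums were lower in every drug library than in any DMSO library. The median log2 fold change of the erythroid genes tested was -0.90 in Gem and -0.48 in HU. Of the erythroid genes, Alas2 went the other way, at 0.99 to 2.74 FPKM in the drug libraries and 0.58 to 0.85 FPKM in DMSO. The means of the other erythroid genes were lower in both drugs, and Epor overlapped DMSO. The mast cell sums of Gem 2 and both HU libraries lay below the lowest DMSO library, and Gem 1 overlapped DMSO. In every library the granulocyte and monocyte sum was the largest of the marker sums. The name stem cell therefore refers to the sort before culture. The part of these markers in the results below was not tested. In bulk RNA, fewer cells of a type and less RNA per cell cannot be told apart.

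The deposited values were also lower as a whole in the drug libraries. The FPKM of all genes summed to 729258 and 703016 in Gem, 647760 and 651315 in HU, and 832979, 819736 and 818775 in DMSO. The median gene tested had a log2 fold change of -0.25 in Gem and -0.30 in HU against DMSO. After each library was scaled by a trimmed mean of its ratios to the others, these medians were -0.03 and -0.06. Both scales are given where they differ.

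Cbx3 had the highest level of the family in every library and the largest difference between drug and DMSO. HP1 gamma, its product, is found in both heterochromatin and the bodies of active genes. Cbx3 had 51.0 and 68.59 FPKM in Gem, 49.25 and 55.84 FPKM in HU, and 269.22, 291.82 and 196.57 FPKM in DMSO. The lowest DMSO library, DMSO 3, lay far above the highest drug library, and the groups did not overlap.

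The Cbx3 mean was 59.8 ± 12.4 FPKM in Gem (SD, n = 2), 52.6 ± 4.66 FPKM in HU (SD, n = 2) and 252.5 ± 49.8 FPKM in DMSO (SD, n = 3). These were 23.7% of the DMSO mean in Gem and 20.8% in HU. The log2 fold change of FPKM + 1 was -2.06 ± 0.19 (SE) in Gem and -2.23 ± 0.19 in HU. On the scaled values it was -1.81 ± 0.19 in Gem and -1.95 ± 0.19 in HU, so most of the difference remained after scaling. Counted from the most lowered gene of the 13865, Cbx3 held place 23 in Gem and place 32 in HU. Without DMSO 3 the log2 fold changes were -2.23 and -2.40. Over all libraries left out in turn they ran from -2.27 (without Gem 2) to -1.85 (without Gem 1) in Gem and from -2.40 to -2.11 in HU. By level, Cbx3 was the 436th gene in DMSO, the 1427th in Gem and the 1503rd in HU.

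The other HP1 genes were also lower in the drug libraries as deposited, by far less. Cbx1, whose product HP1 beta is concentrated at pericentromeric heterochromatin, had 12.07 and 10.97 FPKM in Gem, 12.96 and 11.21 FPKM in HU, and 16.47, 16.41 and 15.53 FPKM in DMSO. Its log2 fold change was -0.45 ± 0.10 (SE) in Gem and -0.39 ± 0.10 in HU. All 4 drug libraries lay below all 3 DMSO libraries as deposited, but on the scaled values, with changes of -0.22 and -0.13, the HU libraries overlapped DMSO.

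Cbx5, the gene of HP1 alpha, had 19.89 and 17.10 FPKM in Gem, 17.29 and 19.19 FPKM in HU, and 26.94, 22.30 and 26.72 FPKM in DMSO. No drug library reached the lowest DMSO library, DMSO 2. The log2 fold change was -0.43 ± 0.12 (SE) in Gem and -0.45 ± 0.12 in HU, and on the scaled values it was -0.19 and -0.18, with overlapping groups.

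**Figure D1:**
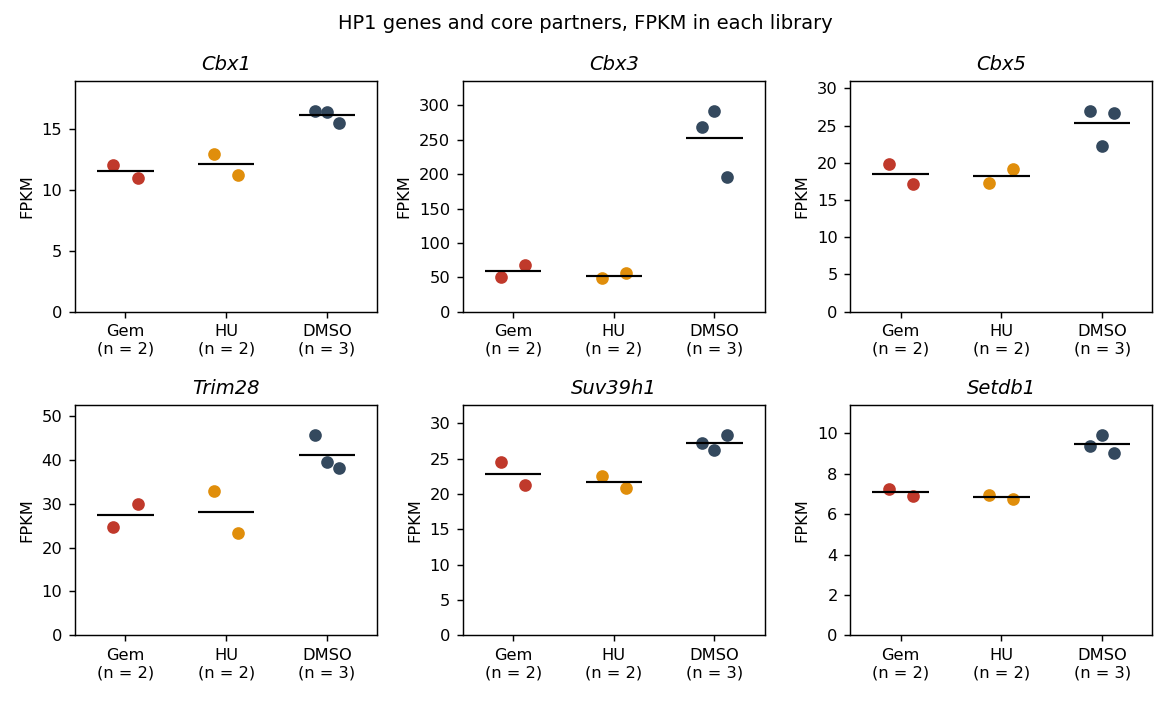
FPKM of each of the 6 genes by library (points; bars show group means), with Gem and HU to the left of DMSO; each panel has its own linear axis from 0. All drug libraries lie below all DMSO libraries in every panel, and Cbx3 stands apart with 49.25 to 68.59 FPKM against 196.57 to 291.82 FPKM.

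The partner genes were lower in the drug libraries as well, Trim28 the most and Suv39h1 the least. Trim28 had 24.78 and 29.84 FPKM in Gem, 32.83 and 23.42 FPKM in HU, and 45.67, 39.46 and 38.10 FPKM in DMSO. The groups did not overlap as deposited, though the 2 HU libraries lay further apart than the 2 Gem libraries. The log2 fold change was -0.57 ± 0.16 (SE) in Gem and -0.55 ± 0.16 in HU. On the scaled values it was -0.33 and -0.27, and HU overlapped DMSO.

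Setdb1, the methyltransferase that Trim28 recruits, had 7.26 and 6.91 FPKM in Gem, 6.94 and 6.75 FPKM in HU, and 9.39, 9.92 and 9.03 FPKM in DMSO. The values within each group lay close together, and the drug and DMSO groups did not overlap on either scale. The log2 fold change was -0.37 ± 0.11 (SE) in Gem and -0.41 ± 0.11 in HU, and -0.15 and -0.16 on the scaled values.

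Suv39h1, which trimethylates H3K9 at pericentromeric repeats, had 24.50 and 21.19 FPKM in Gem, 22.56 and 20.87 FPKM in HU, and 27.15, 26.26 and 28.35 FPKM in DMSO. The drug libraries lay below DMSO as deposited. The log2 fold change was -0.25 ± 0.09 (SE) in Gem and -0.32 ± 0.09 in HU. These were almost those of the median gene, and on the scaled values they were -0.01 and -0.04, with overlapping groups.

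Counted over the family, 6 of 6 genes had both Gem libraries and both HU libraries below all DMSO libraries, as did 50.4% of all genes tested in Gem and 53.9% in HU. The choice of the family used these contrasts, and the drugs share the DMSO libraries, so this count is a description.

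**Figure D2:**
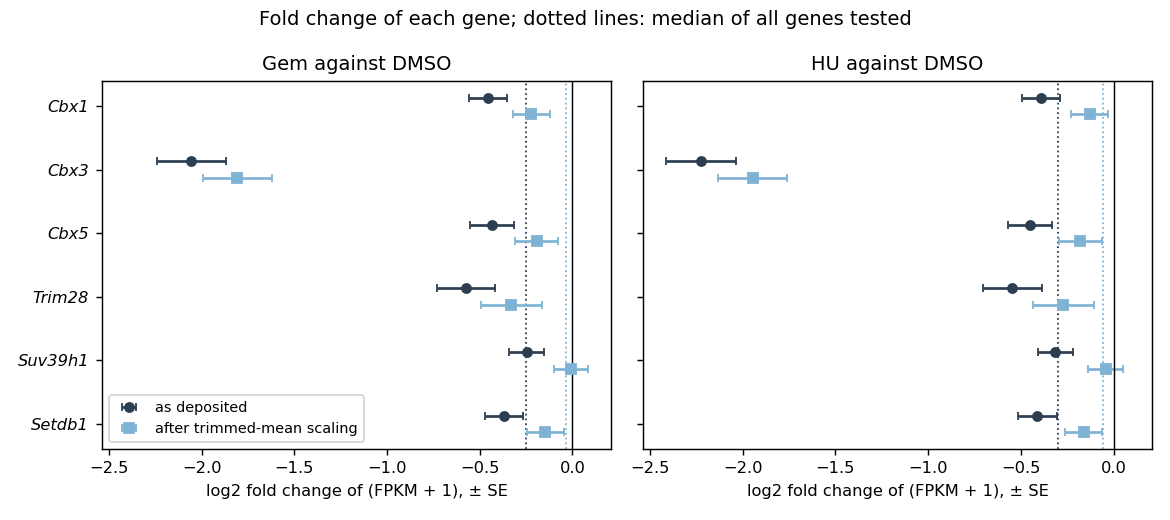
Log2 fold change of FPKM + 1 for the 6 genes in Gem against DMSO and HU against DMSO, as deposited (circles) and after trimmed-mean scaling (squares), with bars of SE and the median of all genes tested as a dotted line. Cbx3 lies at -2.06 and -2.23 as deposited, and the other 5 genes lie between -0.57 and -0.25.

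Gemcitabine and hydroxyurea were compared with each other, a contrast the choice of genes did not use. Called means an adjusted p below 0.05 in limma's two-sided test with Benjamini-Hochberg adjustment over all genes tested. In limma's two-sided test, 0 of the 6 genes were called, and 0 had an unadjusted p below 0.05, where 0.101% of all genes tested were called in either direction (0.13% on the scaled values, again with 0 of the 6). Cbx3 had a log2 fold change of Gem over HU of 0.17 ± 0.21 (SE; 95% interval -0.31 to 0.65; limma adjusted p = 0.816). The interval for Trim28 ran from -0.43 to 0.38 (limma adjusted p = 0.976), that for Cbx1 from -0.33 to 0.20 (limma adjusted p = 0.886) and that for Cbx5 from -0.29 to 0.32 (limma adjusted p = 0.981). Suv39h1 ran from -0.17 to 0.31 (limma adjusted p = 0.855) and Setdb1 from -0.23 to 0.31 (limma adjusted p = 0.929). With 2 libraries a drug, these intervals give the range of differences that the data allow, and they do not show that the drugs act alike.

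Because the 3 HP1 genes differed unequally, their proportions differed too, and a proportion within a library does not depend on how libraries are scaled. Cbx3 made up 61.5% and 71.0% of the summed FPKM of Cbx1, Cbx3 and Cbx5 in Gem, 61.9% and 64.7% in HU, and 86.1%, 88.3% and 82.3% in DMSO. The drug and DMSO groups did not overlap. The summed level was 82.96 and 96.66 FPKM in Gem, 79.50 and 86.24 FPKM in HU, and 312.63, 330.53 and 238.82 FPKM in DMSO.

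The ratio of Cbx5 to Cbx1 showed no such split. It was 1.65 and 1.56 in Gem, 1.33 and 1.71 in HU, and 1.64, 1.36 and 1.72 in DMSO, and the 3 groups overlapped. The ratio of Trim28 to Setdb1 was 3.41 and 4.32 in Gem, 4.73 and 3.47 in HU, and 4.86, 3.98 and 4.22 in DMSO, also with overlap. Within DMSO the genes ordered by FPKM as Cbx3, Trim28, Suv39h1, Cbx5, Cbx1 and Setdb1, and the ranges of Suv39h1 and Cbx5 overlapped. In Gem and in HU the order was the same, and no neighbours overlapped in either drug.

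**Figure D3:**
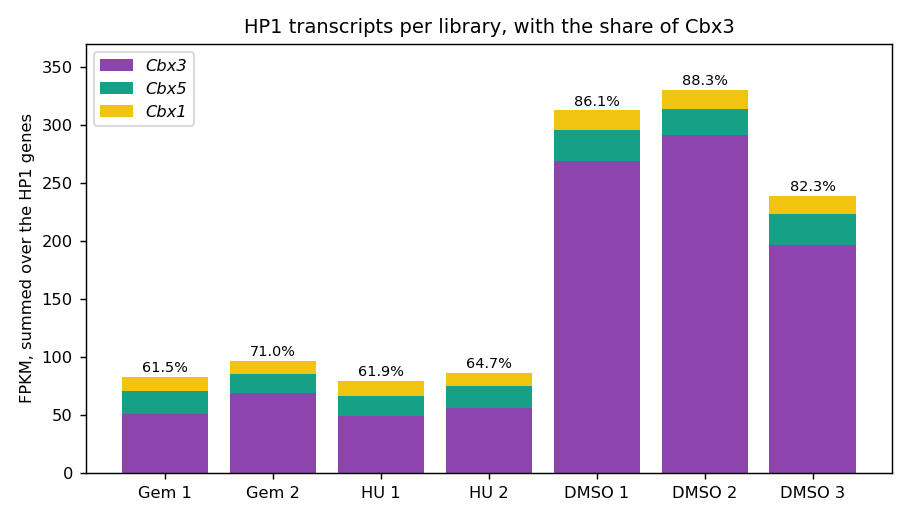
Stacked FPKM of Cbx3, Cbx5 and Cbx1 in each library (vertical axis from 0), Gem and HU to the left of DMSO, with the share of Cbx3 above each bar. Cbx3 takes 61.5% to 71.0% in the drug libraries and 82.3% to 88.3% in the DMSO libraries.

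Both Cbx3 and Cbx5 start close to an RNA-binding protein gene on the other strand, in the GRCm38 annotation used for coordinates. Cbx3 lies on chromosome 6, 51470360 to 51483704 on the plus strand, and 465 bases separate it from Hnrnpa2b1 (51460932 to 51469894, minus strand). Cbx5 lies on chromosome 15, 103191544 to 103239816 on the minus strand, and 615 bases separate it from Hnrnpa1 (103240432 to 103246692, plus strand). These neighbours bind and process RNA and were not chosen for their levels.

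The sequences upstream of these starts are shown because each pair of starts shares a short region. They are RefSeq sequences of GRCm38.p6, read 5′ to 3′ on the strand of the named gene, and capitals mark the motifs found in them, each searched on both strands. The motifs were the CCAAT box (letters CCAAT), the GC box (letters GGGCGG), the E-box (letters CACGTG), the CRE core (letters TGACGT) and the E2F motif (letters TTTNNCGC).
Hnrnpa2b1, chr6:51469895-51470144, minus strand, the side facing Cbx3: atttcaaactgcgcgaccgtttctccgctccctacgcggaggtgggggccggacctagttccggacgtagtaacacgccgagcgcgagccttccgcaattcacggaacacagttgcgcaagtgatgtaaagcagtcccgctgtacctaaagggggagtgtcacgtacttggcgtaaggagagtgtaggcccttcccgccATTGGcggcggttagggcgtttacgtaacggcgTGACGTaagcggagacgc
Cbx5, chr15:103239853-103240102, minus strand: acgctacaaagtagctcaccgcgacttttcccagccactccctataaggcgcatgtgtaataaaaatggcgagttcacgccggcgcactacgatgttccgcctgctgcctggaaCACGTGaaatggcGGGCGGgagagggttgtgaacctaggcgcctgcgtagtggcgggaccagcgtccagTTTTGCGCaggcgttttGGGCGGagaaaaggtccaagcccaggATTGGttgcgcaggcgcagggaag
Hnrnpa1, chr15:103240147-103240396, plus strand: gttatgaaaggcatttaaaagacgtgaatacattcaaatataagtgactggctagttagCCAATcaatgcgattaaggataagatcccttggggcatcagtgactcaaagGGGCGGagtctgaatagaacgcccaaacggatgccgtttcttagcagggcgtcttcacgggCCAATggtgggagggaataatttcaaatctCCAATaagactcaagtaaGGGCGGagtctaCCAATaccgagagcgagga

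All 6 family genes matched a RefSeq window of 250 bases before the start. Among 32851 such windows of all genes, the CCAAT box was found in 33.8%, the GC box in 32.7%, the E-box in 6.02%, the CRE core in 6.47% and the E2F motif in 4.28%. The Cbx5 window held the CCAAT box, the GC box, the E-box and the E2F motif. The Cbx3 window held the GC box and the E2F motif and had a GC content of 73.2%, above 94.3% of windows. That window overlaps annotated Cbx3 exons, so it is not printed. The GC box was in all 6 family windows. A match is a description and not a binding site.

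The neighbours did not share the size of the Cbx3 difference. Hnrnpa2b1 had 340.96 and 332.99 FPKM in Gem, 293.06 and 285.02 FPKM in HU, and 430.12, 413.58 and 445.61 FPKM in DMSO. It fell in both drugs as deposited, by a log2 fold change of -0.35 in Gem (limma adjusted p = 0.0128) and -0.57 in HU (limma adjusted p = 0.00144). On the scaled values the change was -0.10 in Gem (limma adjusted p = 0.504) and -0.29 in HU (limma adjusted p = 0.0367), so the call in Gem was lost. It was also lost without Gem 1 (limma adjusted p = 0.0542) and without Gem 2 (limma adjusted p = 0.0965). The ratio of Cbx3 to Hnrnpa2b1 was 0.15 and 0.206 in Gem, 0.168 and 0.196 in HU, and 0.626, 0.706 and 0.441 in DMSO, and drug and DMSO libraries did not overlap.

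For the other pair it was the neighbour that differed more. Hnrnpa1 had 111.3 and 112.6 FPKM in Gem, 101.32 and 88.01 FPKM in HU, and 182.85, 200.43 and 178.76 FPKM in DMSO. It fell by a log2 fold change of -0.74 in Gem (limma adjusted p = 0.00575) and -0.98 in HU (limma adjusted p = 0.00102). On the scaled values it was still called, at -0.49 in Gem (limma adjusted p = 0.0474) and -0.70 in HU (limma adjusted p = 0.00627), while without Gem 2 the call in Gem was lost (limma adjusted p = 0.0615). The ratio of Cbx5 to Hnrnpa1 was 0.179 and 0.152 in Gem, 0.171 and 0.218 in HU, and 0.147, 0.111 and 0.149 in DMSO, so every drug library was above every DMSO library.

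**Figure D4:**
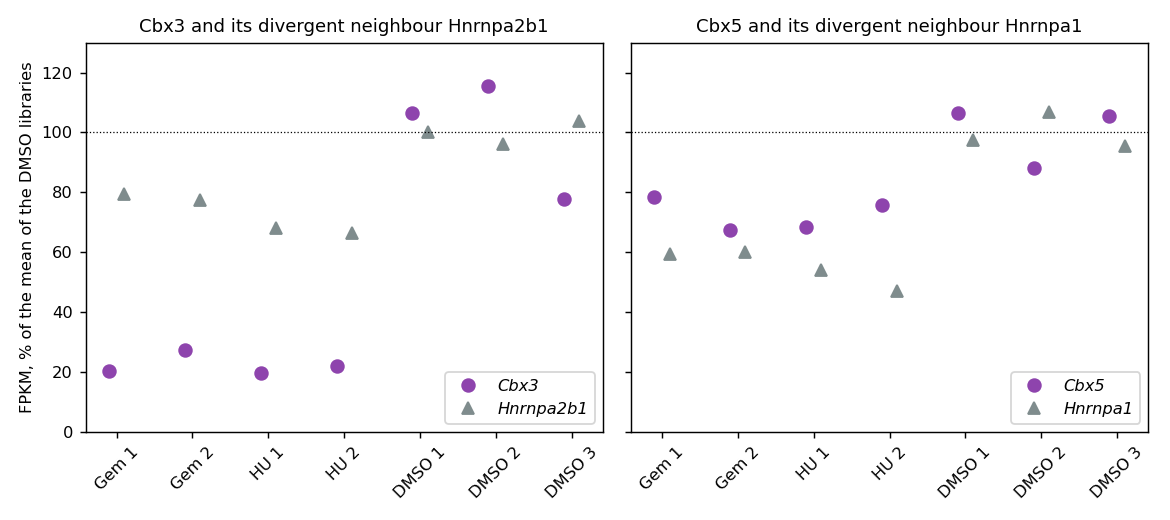
FPKM of Cbx3 (circles) with Hnrnpa2b1 (triangles) and of Cbx5 (circles) with Hnrnpa1 (triangles), each as a percentage of its mean over the DMSO libraries (dotted line), by library with Gem and HU to the left of DMSO. The Cbx3 mean is 23.7% in Gem and 20.8% in HU, and the Cbx3 to Hnrnpa2b1 ratio is 0.15 to 0.206 in the drug libraries and 0.441 to 0.706 in DMSO.

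The other family genes have annotated neighbours that touch them or lie near. Trim28, chromosome 7, 12999114 to 13031035 on the plus strand, has Slc27a5 starting on the other strand 921 bases away, at no more than 1.3 FPKM in any library, and its annotated span holds Zbtb45, also on the other strand, at 3.3 to 5.99 FPKM. Cbx1 lies on chromosome 11, 96789127 to 96808640 on the plus strand, and holds the pseudogene Gm11517 at no more than 1.96 FPKM. Suv39h1 lies on chromosome X, 8061171 to 8074760 on the minus strand, and Setdb1 lies on chromosome 3, 95323525 to 95357202 on the minus strand. The end of Setdb1 overlaps that of Cers2, which had 127.82 and 120.58 FPKM in Gem, 114.98 and 120.23 FPKM in HU, and 158.54, 163.82 and 160.76 FPKM in DMSO. Cers2 was at 77.1% of its DMSO mean in Gem and 73.0% in HU, and Setdb1 was at 75.0% and 72.5%. The antisense gene Gm14820 overlaps Suv39h1 at no more than 0.25 FPKM. The 8 Cbx3 pseudogenes of the table reached at most 1.02 FPKM. The labels do not say that reads carry strand, so reads shared with overlapping genes or copies cannot be told apart.

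The genes of other heterochromatin lists gave the family a wider setting. The 7 lists held 57 genes, of which 56 were tested. They were chosen with earlier results of these data known, so their calls against DMSO are not independent evidence. Limma called 10 of them lower in Gem and 19 lower in HU, with 0 called higher in either drug. The genes called lower were 17.9% of the list genes in Gem and 33.9% in HU. The shares of all genes tested were 23.2% and 35.5%, so the lists were at or below the background. Of the list genes, 9 were called in both drugs. The contrasts share the DMSO libraries, and the share of all genes called in both was not counted, so the 9 are a description. Over all genes tested, 1.5% were called higher in Gem and 4.46% in HU. The median log2 fold change of the lists was -0.21 in Gem and -0.28 in HU, against -0.25 and -0.30 for all genes. On the scaled values limma called 0 list genes in Gem and 2 in HU. In Gem, 8 list genes had an unadjusted p below 0.05 in limma's test. The share of all genes below that unadjusted p was not counted, so the 8 are a description. Over all genes tested on the scaled values, 1.12% were called lower and 0.591% higher in Gem, and 9.04% lower and 4.56% higher in HU. The 2 list genes were Kmt5a, lower, and Trim33, higher, which was picked out after its values were seen. Without Gem 2, limma called 0 list genes and 0 of all genes lower in Gem as deposited.

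The Polycomb chromobox genes carry the same kind of chromodomain but bind H3K27 methylation. Cbx2, Cbx6, Cbx7 and Cbx8 lay between 0.77 and 3.8 FPKM over the 7 libraries, and limma called 0 of these 4 in either drug, with 0 at an unadjusted p below 0.05. Over all genes tested, limma called 23.2% lower in Gem and 35.5% lower in HU. The low levels limit what could be seen.

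Among the other H3K9 methyltransferases and cofactors, limma called 1 of 6 in each drug. This was Suv39h2, the close relative of Suv39h1, with 1.08 and 1.14 FPKM in Gem, 0.82 and 0.99 FPKM in HU, and 2.47, 1.90 and 2.52 FPKM in DMSO. It fell by a log2 fold change of -0.64 in Gem (limma adjusted p = 0.0445) and -0.79 in HU (limma adjusted p = 0.0144), and on the scaled values, at -0.48 and -0.62, neither was called. Of the H3K9 demethylases, 0 of 6 were called in Gem and 1 in HU, Kdm4c at -0.39 (limma adjusted p = 0.0194). Of the HUSH complex and Morc2a, 0 of 4 were called in Gem and 1 in HU, Pphln1 at -0.29 (limma adjusted p = 0.0455). In each of these lists the share called lower was below the 23.2% of all genes in Gem and 35.5% in HU.

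The deacetylase complex NuRD, which HP1 and Trim28 recruit, had 4 of 12 genes called lower in Gem and 7 of 12 in HU, where 23.2% and 35.5% of all genes were. Rbbp7, a histone chaperone subunit, had 101.84 and 98.86 FPKM in Gem, 97.80 and 94.42 FPKM in HU, and 144.60, 131.18 and 145.86 FPKM in DMSO. It fell by a log2 fold change of -0.48 in Gem (limma adjusted p = 0.00803) and -0.54 in HU (limma adjusted p = 0.00206). The deacetylase Hdac2 fell by -0.58 in both drugs (limma adjusted p = 0.00996 in Gem and 0.00484 in HU), and Hdac1 fell by -0.42 in Gem (limma adjusted p = 0.00957) and -0.50 in HU (limma adjusted p = 0.00237). None of these calls held on the scaled values.

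HP1-binding proteins and chaperones had 2 of 12 genes called lower in Gem and 5 of 12 in HU, near or below the 23.2% and 35.5% of all genes. The lamin B receptor Lbr, which tethers heterochromatin to the nuclear envelope, fell in Gem (-0.33, limma adjusted p = 0.0156) and HU (-0.49, limma adjusted p = 0.00221). Incenp, of the chromosomal passenger complex, fell by -0.32 in both drugs (limma adjusted p = 0.027 in Gem and 0.0172 in HU). In HU, Daxx, a histone H3.3 chaperone, fell by -0.50 (limma adjusted p = 0.00644) and the remodeler Smarcad1 by -0.53 (limma adjusted p = 0.00689).

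Genes of DNA methylation and H4K20 methylation had 3 of 11 called lower in Gem and 4 of 11 in HU, near the 23.2% and 35.5% of all genes. Kmt5a, the H4K20 monomethyltransferase, had 25.18 and 23.83 FPKM in Gem, 26.10 and 24.62 FPKM in HU, and 37.24, 40.19 and 38.88 FPKM in DMSO. It fell by -0.64 in Gem (limma adjusted p = 0.00582) and -0.59 in HU (limma adjusted p = 0.00196). On the scaled values the HU call stood, at -0.32 (limma adjusted p = 0.0368), and the Gem call was lost, at -0.40 (limma adjusted p = 0.0559). Uhrf1, which links H3K9 methylation to DNA methylation, fell by -0.41 in Gem (limma adjusted p = 0.0224) and -0.35 in HU (limma adjusted p = 0.024). Kmt5c fell in Gem by -0.34 (limma adjusted p = 0.0409) and Mbd1 in HU by -0.49 (limma adjusted p = 0.0103).

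**Figure D5:**
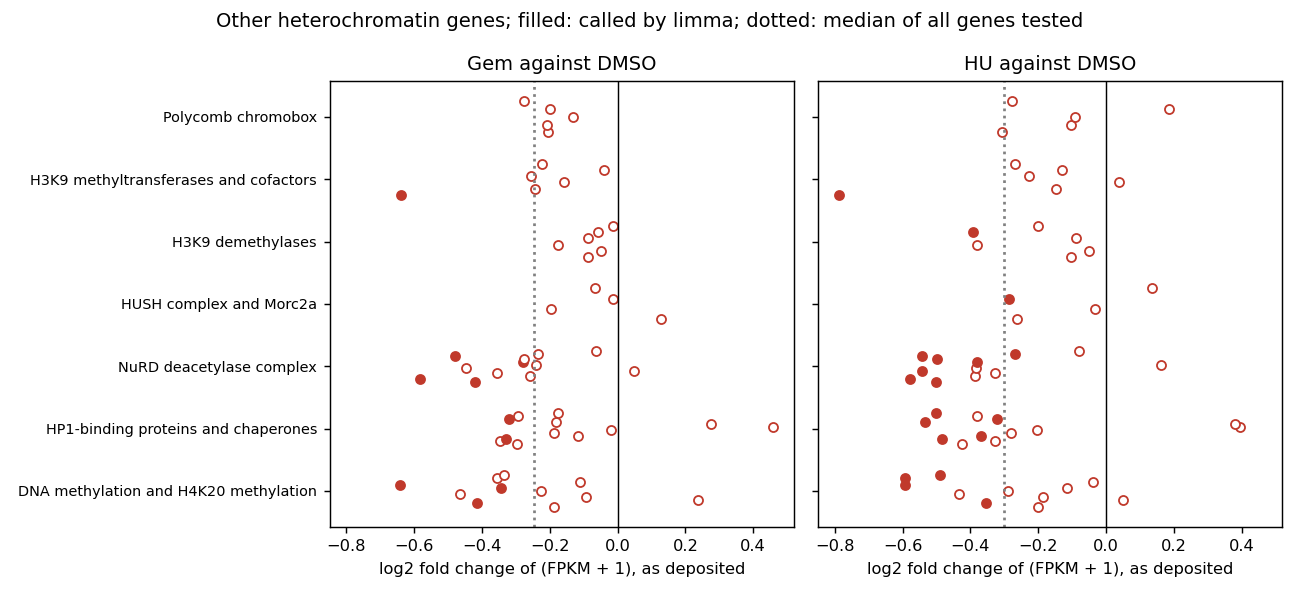
Log2 fold change of FPKM + 1 as deposited, for the 56 tested genes of the 7 heterochromatin lists in Gem against DMSO and HU against DMSO (one point per gene, filled where limma called it), with the median of all genes tested as a dotted line. The lowest list gene lies at -0.64 in Gem and -0.79 in HU, above the -2.06 and -2.23 of Cbx3.

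The 5 genes with profiles most like that of Cbx3 were sought over the 7 libraries among 8512 genes with a mean of at least 5 FPKM, by the root mean square difference of centred log2(FPKM + 1) profiles. They were Mir8095 (0.347), Snhg6 (0.41), Paip1 (0.43), Arglu1 (0.443) and Smim26 (0.45). Snhg6, a host of small nucleolar RNA, had 45.50 and 37.84 FPKM in Gem, 31.86 and 27.62 FPKM in HU, and 101.77, 114.74 and 83.23 FPKM in DMSO. Its DMSO 3 value was the lowest of the DMSO libraries, as for Cbx3.

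Paip1, which encodes a partner of poly(A)-binding protein, had 13.86 and 12.53 FPKM in Gem, 10.25 and 9.07 FPKM in HU, and 32.32, 34.24 and 26.84 FPKM in DMSO. Arglu1 had 23.0 and 21.33 FPKM in Gem, 17.27 and 15.49 FPKM in HU, and 53.40, 67.18 and 35.18 FPKM in DMSO. Smim26 had 11.84 and 14.58 FPKM in Gem, 11.18 and 12.69 FPKM in HU, and 31.30, 35.43 and 27.03 FPKM in DMSO. In all of them drug and DMSO libraries were apart.

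Mir8095 had 6.23 and 7.56 FPKM in Gem, 5.51 and 8.37 FPKM in HU, and 24.39, 21.02 and 22.47 FPKM in DMSO. It is a gene of 129 bases within an intron of Dgkg, on the same strand, so reads of the microRNA gene and of the Dgkg precursor cannot be told apart. Mir8095 was at 30.5% of its DMSO mean in Gem and 30.7% in HU. The Dgkg gene was at 81.1% and 74.3%, and its drug libraries overlapped DMSO. The 5 genes were picked for their likeness to Cbx3, and their values are a description.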

How the data were processed

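RNA of cells cultured after a sort for haematopoietic stem cells was sequenced in 7 libraries (2 Gem, 2 HU and 3 DMSO), grouped by the labels. The authors deposited 1 table of FPKM for 52224 genes; 0 sample columns were left unused. Per the submitters' processing notes, the build was mm10 and the tools listed, in no order and with no role, were Cufflinks 2.1.1, Bowtie 0.12.9, DESeq2 and HTSeq; the annotation is not given in the sources used here. Library depth cannot be read from FPKM, so no interval for counting error is given.

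The limma package, 3.58.1, under R 4.3.3 fitted log2(FPKM + 1) (mean-variance trend, 3 groups in one model, 4 residual degrees of freedom, two-sided, Benjamini-Hochberg over 13865 genes with at least 1 FPKM in at least 2 libraries, called at an adjusted p below 0.05). Adjusted p-values are limma's throughout. Fold changes on this scale understate the change of low genes. Tables and figures were made in Python 3.11.15. Trimmed-mean scaling of FPKM (30% of ratios and 5% of levels trimmed at each end) was the main alternative, beside a pseudocount of 0.1, other filters, a TPM scale, no trend, models of the compared groups, the replicate block and each library left out. The fit was tested on simulated data. Coordinates are from GENCODE M21 (GRCm38), and promoter sequences from RefSeq.

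The named genes were the 6 family genes, up to 3 called genes with the smallest p per list and contrast, the Polycomb chromobox genes (1 is not reported here), protein-coding genes starting within 1 kb on the other strand, Cbx3 pseudogenes, and the 5 genes most like Cbx3 in profile. The family and the lists were chosen with earlier results of these data known. Replicate numbers of the labels are not said to mark a shared mouse, batch or day.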

Additional observations from a re-analysis of the deposited data

How the results depend on the processing

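The list genes called lower in Gem numbered 10 as analysed, 5 without a filter on low values, 5 without the mean-variance trend, 1 on the TPM scale and 0 after trimmed-mean scaling. Those called lower in HU numbered 19, against 1 after trimmed-mean scaling and 0 on the TPM scale, and the list genes called higher in HU, 0 as analysed, numbered 1 under either scale and 1 with the replicate block. Leaving out each library in turn gave 0 to 11 lower in Gem (0 without Gem 2), 10 to 20 lower in HU, and 0 to 1 higher in HU. Trimmed-mean scaling without DMSO 3, chosen after seeing the data, gave 0 lower in Gem, 0 lower in HU and 1 higher in HU. No family gene was called between Gem and HU under any alternative run. With the replicate block the lists had 9 lower in Gem and 14 in HU, where 19.8% and 31.6% of all genes were called lower. Same-numbered libraries correlated between -0.0736 and 0.0549 in their deviations from the group mean. With 2 libraries a drug, the 2 deviations of a gene are equal and opposite, so this cannot decide whether the numbers mark pairs. Directions between Gem and HU reversed for Cbx5 (-0.0147 after scaling, with and without DMSO 3, and -0.12 on the TPM scale), Suv39h1 (-0.068, TPM) and Setdb1 (-0.083, TPM); over libraries left out, the log2 fold changes of Gem over HU were -0.16 to 0.0348 for Cbx1, -0.0395 to 0.381 for Cbx3, -0.0864 to 0.12 for Cbx5, -0.26 to 0.21 for Trim28 and -0.0327 to 0.168 for Suv39h1. Against DMSO, Suv39h1 reversed in Gem (0.0353, scaled without DMSO 3) and HU (0.0144, TPM), Pphln1 in HU (0.0442, TPM; 0.0641, scaled without DMSO 3) and Uhrf1 in HU (0.0145, scaled without DMSO 3). The causes were not tested. Over all settings the log2 fold change of Cbx3 ran from -2.27 to -1.81 in Gem and from -2.40 to -1.89 in HU. With depth unknown, no detection limit can be given for low genes such as Suv39h2.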
